A study of Rattus norvegicus with 24 samples.

Results

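Nrep, the gene of neuronal regeneration related protein (also called P311), was followed through 24 arrays of RNA from rat thoracic propriospinal neurons after spinal cord transection. It was picked out because it was the most decreased gene at 3 days after injury, and it was found through the platform annotation as the symbol of 1 probe set (10803692) among 27342 on the array, and as 1 of 14327 genes that the annotation names. The values that chose it are those of the transected animals at 3 days and of the 4-day controls, so the Nrep level in any comparison with these groups is given as a description, without a test. Other genes were tested between them.

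Nrep encodes a small intracellular protein that was first described in developing neurons. It has been linked to neurite outgrowth and to regrowth of motor axons after nerve injury. In other cells, among them fibroblasts and smooth muscle, it is known for binding a subunit of the translation initiation factor eIF3 and for raising the translation of the TGF-beta ligands. Propriospinal neurons connect segments of the spinal cord with each other, and those studied here send their axons from the thoracic cord to the lumbar enlargement.

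The neurons were labelled by Fluoro-Gold, a tracer taken up by axon ends and carried back to the cell body, which had been injected into the lumbar enlargement of adult female Long Evans rats (77 ± 10 days of age). Transected animals received a complete low thoracic transection of the cord, and controls received the tracer alone. Labelled cells of the intermediate gray matter were cut out of frozen sections one by one with a laser, their RNA was amplified, and each animal gave 1 array. The transected groups held 4 animals at 3 days, 4 at 1 week, 2 at 2 weeks and 2 at 1 month. The controls held 4 animals each and are named by the sample labels as controls of 4 days, 2 weeks and 1 month. The study's methods count control survival from the tracer injection, which gives longer times than the labels. Animals carry the numbers of their sample titles, so the 1-week animals are 1, 2, 4 and 5 and the 2-week transected animals are 3 and 4. Every group, controls included, had the tracer injection into the cord, and a pool of laser-cut cells can carry RNA of the tissue that touches them.

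Levels are log2 of the deposited intensity, and they can be compared between arrays for 1 probe set but not between probe sets. The arrays correlated with each other at r = 0.955 to 0.990 over the 23240 probe sets above a filter on low values. Their median intensities lay between 73.6 and 81.3. Markers of the labelled cell type were read against the filter on low values, since levels of different probe sets cannot be compared. The brightest of the 19 neuronal markers measured, Snap25, Thy1 and Nefm, averaged 12.29, 12.26 and 12.09 over the 12 controls. Markers of other cells were also well above the filter on low values (log2 5.05). The brightest were Aldoc, Ndrg2 and S100b for astrocytes (11.76, 11.22 and 11.21), Mbp, Mobp and Ermn for oligodendrocytes (11.22, 11.13 and 10.96) and Ctss, Aif1 and Tyrobp for microglia (10.60, 8.98 and 8.78). Rgs5, Cldn5 and Slco1a4 led the vascular markers (10.36, 9.82 and 8.89). Mgp, Dcn and Col1a1 led those of fibroblasts (8.80, 7.67 and 7.14). Rarres2, Dynlrb2 and Tekt1 led those of ependymal cells (8.69, 7.04 and 5.98), and Olig1, Pdgfra and Gpr17 those of oligodendrocyte precursors (8.28, 6.97 and 6.96). The 4-day controls 3 and 4 had the lowest array weights, 0.33 and 0.48, where the other 22 arrays had 0.62 to 1.66. Such a weight falls as an array departs from the fit of its group. The 0.62 belonged to transected animal 3 of 3 days.

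At 3 days after transection the Nrep level was 7.53, 7.40, 6.50 and 7.28 in animals 1 to 4, against 8.90, 8.89, 8.47 and 9.21 in the 4-day controls 1 to 4. The highest transected animal lay below the lowest control, and animal 3 lay furthest below. As intensities these are 185, 168, 90.3 and 156 at 3 days, against 479, 473, 354 and 592 in the controls. The means were 7.18 ± 0.46 at 3 days and 8.87 ± 0.31 in the 4-day controls (SD, n = 4 each), a log2 difference of -1.69 (SE 0.22) or 0.31-fold. Groups that did not overlap, with 3 days lower, were seen for 2.76% of the 23240 probe sets tested. The difference was -1.46 without transected animal 3 and -1.72 (SE 0.27) against 4-day controls 1 and 2 alone. In RNA from pooled cells, fewer cells of a type and less RNA per cell cannot be told apart.

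**Figure D1:**
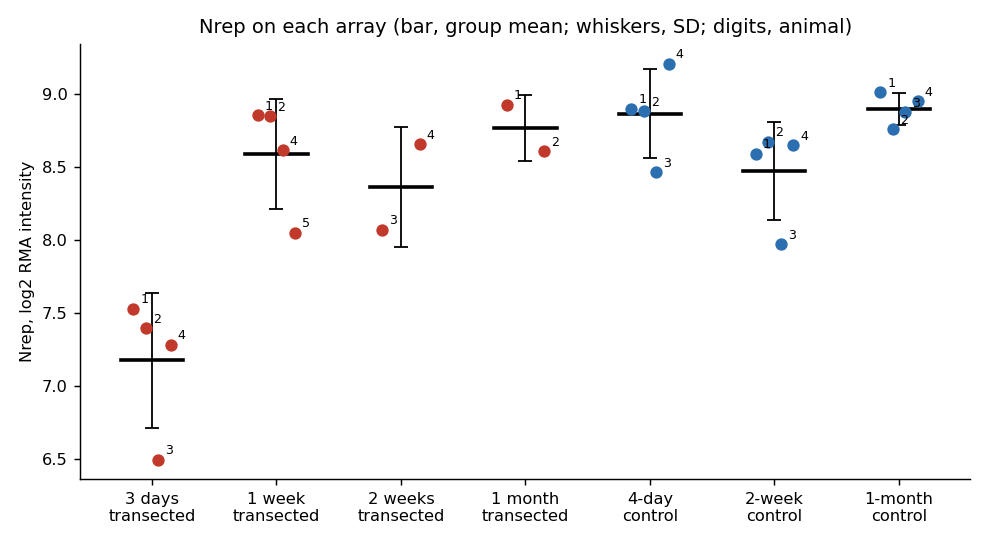
Log2 RMA intensity of Nrep (vertical axis) on each of the 24 arrays, by group (horizontal axis, transected groups in red, controls in blue), with the group mean as a bar, the SD as whiskers and the animal's number beside its point. The 4 animals at 3 days sit between 6.50 and 7.53, below every other array, of which the lowest is 2-week control 3 at 7.97.

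No other probe set had a lower difference at 3 days. The next was Mx1, an interferon-induced antiviral GTPase, at -1.45 (SE 0.62). It was followed by Slc6a11, the GABA transporter GAT3, at -1.34 (SE 0.14) and by Isg15, an interferon-induced ubiquitin-like protein, at -1.32 (SE 0.56). The gap between Nrep and Mx1 was smaller than the standard error of the Mx1 difference, so these 2 places in the order are not separated. The 3-day animals lay below all 20 other arrays for Nrep and for 126 probe sets in all, 0.542% of those tested.

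At 1 week the Nrep level was 8.86, 8.85, 8.62 and 8.05 in animals 1, 2, 4 and 5, against the 4-day control values given above. All 4 animals of 1 week lay above all 4 of 3 days, and 3 of them within the range of the 4-day controls. Animal 5 lay below that range. The mean was 8.59 ± 0.38 at 1 week and 8.87 ± 0.31 in the 4-day controls (SD, n = 4 each), a log2 difference of -0.27 (SE 0.22). Both early differences use the same 4 control arrays. The controls of 2 weeks and 1 month, which did not enter the choice of the gene, allowed a test, although they are not matched in time. Against these 8 arrays the 1-week difference was -0.094 (SE 0.19, 95% interval -0.49 to 0.31), and the exact two-sided permutation test gave p = 0.719 over 495 regroupings. The regroupings took the 8 controls as 1 group, although the 1-month controls were all higher in Nrep than the 2-week controls. The adjusted p of limma, a linear model of all probe sets, was 0.904, while 1.06% of probe sets tested passed an adjusted p of 0.05 in this comparison. Without animal 5 the difference was 0.086.

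At 2 weeks the Nrep level was 8.07 and 8.66 in transected animals 3 and 4, against 8.59, 8.68, 7.97 and 8.65 in 2-week controls 1 to 4. Both transected animals lay inside the control range. The log2 difference was -0.11 (SE 0.27, 95% interval -0.67 to 0.46), with an exact two-sided permutation p of 0.933 and an adjusted p of 0.993 by limma. Without transected animal 3 it was 0.18.

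At 1 month the level was 8.93 and 8.61 in transected animals 1 and 2, against 9.02, 8.76, 8.88 and 8.96 in 1-month controls 1 to 4. Animal 1 lay inside the control range and animal 2 below it. The log2 difference was -0.13 (SE 0.27, 95% interval -0.70 to 0.43), with an exact two-sided permutation p of 0.4 and an adjusted p of 1 by limma. Without animal 2 it was 0.027. With 2 animals against 4, the smallest exact p is 0.0667, so neither late comparison could reach 0.05 alone. The average of both late differences was -0.12 (SE 0.19, 95% interval -0.52 to 0.28), with an exact permutation p of 0.489 and an adjusted p of 0.983. It was 0.026 without the 2-week transected animal 3. No probe set passed limma's adjusted p of 0.05 at 2 weeks, at 1 month or in their average (0.0% each). At an unadjusted p under 0.05 there were 1229 at 2 weeks and 799 at 1 month, and the methods' t-test with the same adjustment called 0 and 2.

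**Figure D2:**
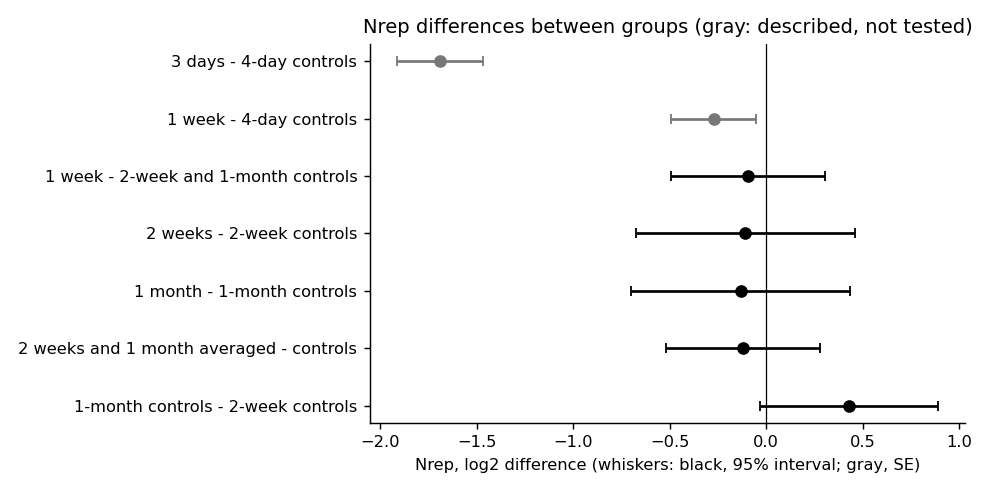
Log2 difference of Nrep (horizontal axis) for each comparison (vertical axis), with the 95% interval of the limma fit as whiskers for the tested comparisons (black) and the SE for the described ones (gray). The point at 3 days lies at -1.69, and the intervals of the 4 later comparisons of transected animals that were tested all hold 0.

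Nrep was also compared between uninjured groups. The 4 controls of 1 month were all higher than the 4 of 2 weeks (means 8.90 ± 0.11 and 8.47 ± 0.34, SD, n = 4 each). The log2 difference was 0.43 (SE 0.22), and the exact two-sided permutation p was 0.0286, the smallest that 4 against 4 allows. It did not pass the test across all probe sets (adjusted p = 0.196, limma), a threshold that 10.2% of probe sets passed between these controls. Groups that did not overlap, with 1 month higher, made up 10.6%. The 2-week control 3, at 7.97, lay below the other controls of its group (8.59 to 8.68), and without it the difference was 0.26. Normalizing the arrays again by quantiles or by cyclic loess gave 0.27 each (adjusted p = 0.457 and 0.469, limma).

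In order of their means, the groups ran from 3 days (7.18) through 2 weeks transected (8.37), 2-week controls (8.47), 1 week (8.59), 1 month transected (8.77) and 4-day controls (8.87) to 1-month controls (8.90). Only the first step, of 1.19, joined groups whose ranges did not overlap. The other 5 steps lay between 0.036 and 0.18, and the ranges of those neighbours overlapped. Within groups Nrep was a variable probe set. Its residual SD was 0.34 on the log2 scale, larger than that of 93.3% of the probe sets tested, where the median probe set had 0.17.

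The genes whose levels followed Nrep most closely over the 24 arrays were sought among the probe sets above the filter that carry 1 gene symbol. These correlations are descriptions over arrays that share 7 groups, so a high r can come from the 3-day group alone, and r was therefore also taken without these 4 arrays and over the deviations of all arrays from their group means. Over all probe sets tested r with Nrep had a median of -0.036, and 90% lay between -0.50 and 0.54. Nrep also varied with the median intensity of the array. Outside 3 days it was lowest in 2-week control 3, 1-week animal 5, 2-week transected animal 3 and 4-day control 3. Their medians were 80.7, 81.2, 80.3 and 81.3. In 4-day control 4, which was highest in Nrep, the median was 74.8. The part of such array-wide differences in the correlations was not tested.

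Thrb, the thyroid hormone receptor beta, was closest (r = 0.905, Spearman's rho 0.863, n = 24). Over the 20 arrays without 3 days r was 0.733, rank 117 of all probe sets, and over the deviations 0.703. Its level was 6.55 to 6.92 at 3 days, against 7.15 to 7.61 in the 4-day controls, without overlap. Slc6a11 (r = 0.884, rho 0.865) had 0.754 over the 20 arrays, rank 72, and 0.470 over the deviations. It stood at 8.58 to 9.01 at 3 days, against 9.91 to 10.57 in the 4-day controls. Slco1c1, a transporter of thyroid hormone, had r = 0.880 over 24 arrays, 0.643 over 20 and 0.749 over the deviations. Glud1, the mitochondrial glutamate dehydrogenase, had 0.868, 0.760 and 0.771 on the same measures although its own 3-day difference was only -0.30 (SE 0.10).

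The other 4 of the 8 closest were Car14, a membrane-bound carbonic anhydrase (r = 0.900), Spry2, an inhibitor of growth factor signalling (0.898), the membrane protein Itm2a (0.858) and Tst, the mitochondrial enzyme thiosulfate sulfurtransferase (0.857). Without the 3-day arrays r was 0.689 for Itm2a, 0.606 for Spry2, 0.584 for Car14 (rank 1169) and 0.376 for Tst (rank 4193). Tst thus moved with Nrep mainly through the 3-day group. The 8 genes had differences at 3 days from -1.34 (Slc6a11) to -0.30 (Glud1), all below 0, and these follow in part from how they were picked.

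The 8 genes that ran most opposite to Nrep were all higher at 3 days, which follows in part from how they were picked. Rbm3, a cold-inducible RNA-binding protein, had r = -0.889 over 24 arrays and -0.495 without 3 days. Its level was 8.81 to 9.38 at 3 days, against 7.74 to 7.94 in the 4-day controls. Sult1a1, a phenol sulfotransferase, had -0.874 over 24 arrays and -0.389 without 3 days. The chemokine Ccl2 had -0.872 and the complement regulator properdin, Cfp, had -0.850. They were followed by Serpina3n, a protease inhibitor (-0.843), Fancd2 of DNA repair (-0.824), Rcan3, a regulator of calcineurin (-0.813), and the neuronal pentraxin Nptx2 (-0.811). Without 3 days the 8 lay between -0.612 (Cfp) and -0.303 (Nptx2).

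**Figure D3:**
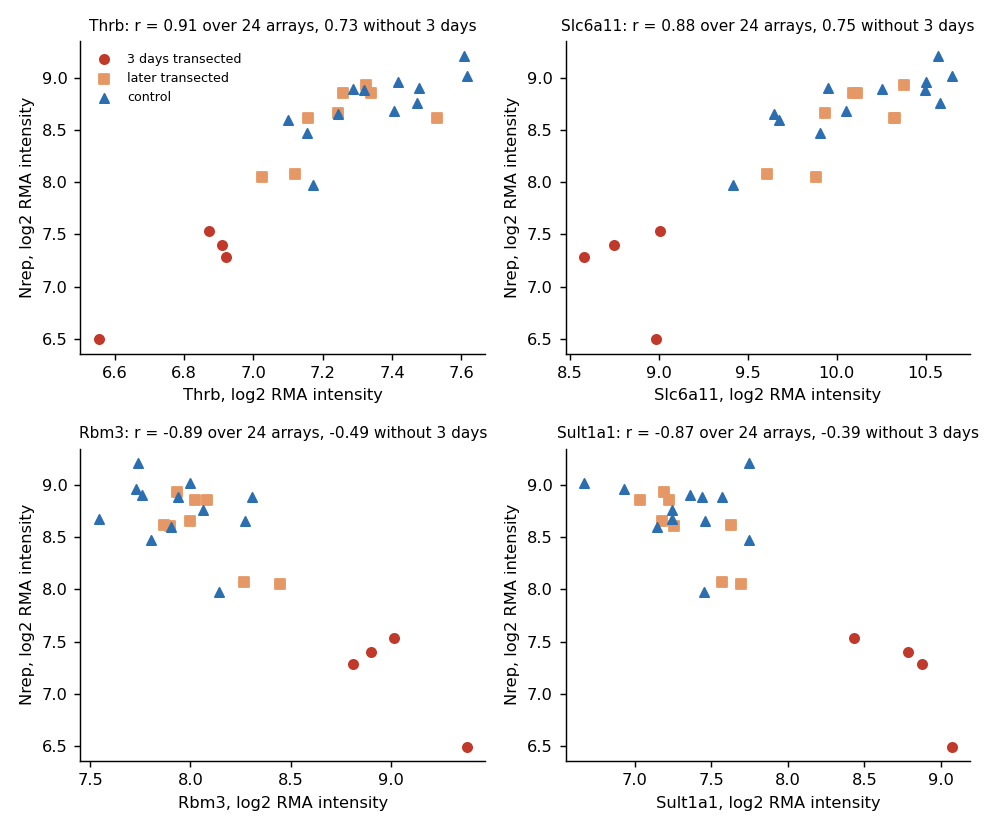
Log2 intensity of Nrep (vertical axes) against that of Thrb, Slc6a11, Rbm3 and Sult1a1 (horizontal axes) on the 24 arrays, with 3 days as red circles, later transected animals as orange squares and controls as blue triangles. The 3-day arrays lie apart in all 4 panels, and the remaining 20 arrays still slope for Thrb (r = 0.733) and Slc6a11 (r = 0.754) and more weakly for Rbm3 (r = -0.495) and Sult1a1 (r = -0.389).

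With the group means removed, a different set of genes followed Nrep. The 5 highest were Ammecr1l (r = 0.862), Idh2, the mitochondrial isocitrate dehydrogenase (0.833), Msi1, the RNA-binding protein Musashi (0.829), the NAD kinase Nadk (0.824) and the transcription factor subunit Gabpa (0.822). None of these 5 passed the test at 3 days (adjusted p 0.233 to 0.988, limma). Idh2 and Nadk had r = 0.851 and 0.844 over the 20 arrays, ranks 4 and 5 of all probe sets, but only 0.462 and 0.210 over 24. The 5 lowest were the olfactory receptor genes Or51a10 (-0.912) and Or6c76b (-0.823), the transcription factors Foxn1 (-0.825) and Zfhx2 (-0.811), and C8h19orf38 (-0.817). Or51a10 averaged 5.15, just above the filter, where log2 differences are least certain.

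The markers of cell types moved with Nrep in different ways, and their part in the Nrep result was not tested. Astrocyte markers had a median r of 0.478 with Nrep over 24 arrays, above 0 for 14 of the 15 measured, and 0.412 over the deviations, again above 0 for 14. The astrocyte list averaged 9.71 to 9.90 at 3 days, against 9.68 to 10.40 in the 4-day controls, with a median difference of -0.20 over its members. Of the 15, 4 passed the test as lower, where 0.886% of all probe sets did, with Slc6a11, Slc7a10, an amino acid transporter, at -0.82 and Kcnj10, the inward rectifier Kir4.1, at -0.89 in front. The other 11 did not pass.

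Microglia and macrophage markers had a median r of -0.474 over 24 arrays, with 1 of 19 above 0, and of 0.430 over the deviations, with 19 of 19 above 0. Their direction relative to Nrep thus turned once the group means were removed. The list averaged 8.58 to 9.13 at 3 days, against 7.22 to 8.57 in the 4-day controls, and its median difference was 0.86. Of its 19 members 9 rose, where 2.0% of all probe sets did, led by C1qb (1.19), Itgam (1.77) and Cybb (1.55), a complement component, an integrin chain and a subunit of the phagocyte oxidase.

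Oligodendrocyte markers had a median r of 0.380 over 24 arrays and 0.466 over the deviations, above 0 for 12 of 13, with Mog at 0.736 and Mbp at 0.718. Their list averaged 9.65 to 10.02 at 3 days, against 9.62 to 9.94 in the 4-day controls. Of the 13, Cldn11 (0.78) and Aspa (0.59) rose and Gpr37 (-0.66) fell, where 2.0% of all probe sets rose and 0.886% fell. Neuronal markers had a median r of 0.397 over 24 arrays but -0.035 over the deviations, above 0 for 9 of 19. Their list averaged 9.77 to 10.14 at 3 days, against 9.98 to 10.16 in the 4-day controls. Of the 19, 2 fell, where 0.886% of all probe sets did. They were the intermediate filament protein Ina (-0.37) and the neuronal splicing factor Rbfox3 (-0.40). Arrays of 1 group with more Nrep thus had higher levels of most glial markers, but not of neuronal ones as a list. Array medians varied with Nrep too, and their part in this was not tested. Over all probe sets tested the median r of the deviations was -0.031.

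The remaining lists were smaller or closer to 0. Vascular markers had a median r of 0.166 over 24 arrays and 0.196 over the deviations (15 measured), and fibroblast markers -0.327 and -0.084 (12 measured). Precursor markers had -0.019 and 0.203 (7 measured, none passed at 3 days, Pdgfra with the smallest p at 0.48, SE 0.17, adjusted p = 0.167). Ependymal markers had -0.052 and 0.59 over 4 genes, and Rarres2 rose by 0.85.

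**Figure D4:**
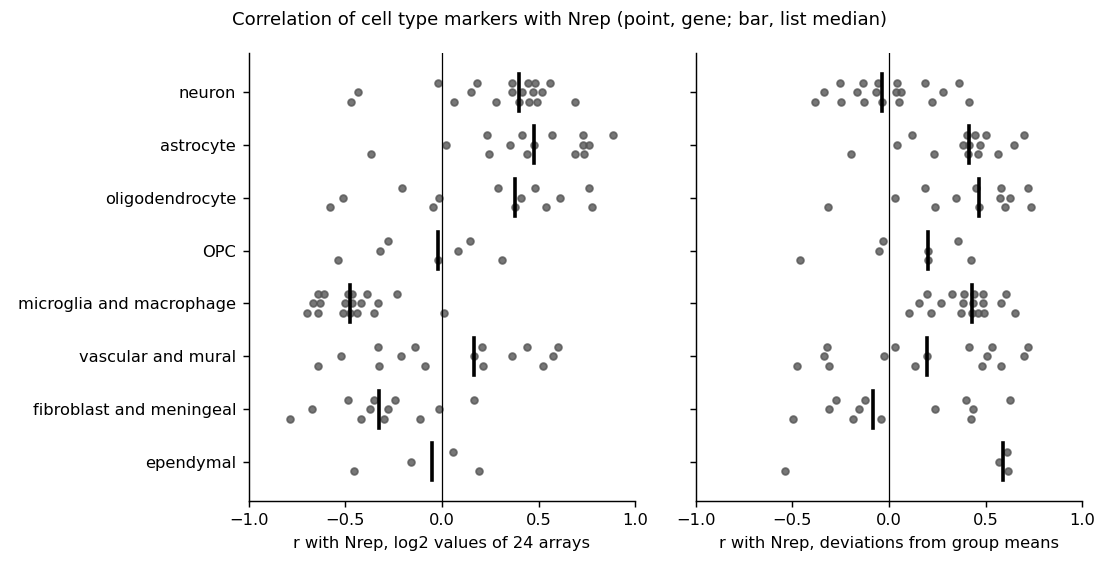
Pearson's r with Nrep (horizontal axes) of the markers of 8 cell types (vertical axis), over the log2 values of 24 arrays on the left and over deviations from group means on the right, with a point for each gene and a bar at the median. Microglia and macrophage markers lie below 0 on the left for 18 of 19 genes and above 0 on the right for all 19.

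The pathway in which Nrep is known to act was read next. Of 44 genes of TGF-beta signalling, 34 were measured above the filter, and 5 rose and 0 fell at 3 days, where 2.0% of all probe sets tested rose and 0.886% fell. The median log2 difference of the 34 was -0.01, the same as that of all probe sets. None of the 10 genes of ligands and their latency proteins passed the test. Tgfb1 averaged 6.60 at 3 days and 6.56 in the 4-day controls, a difference of 0.03 (SE 0.16). Tgfb2 had a difference of -0.06 (SE 0.20) and Tgfb3 of -0.17 (SE 0.23), with overlapping groups for all 3. These are RNA levels, and the translation of the ligands was not measured. The smallest p of this list belonged to Ltbp4, a latency binding protein (0.20, SE 0.07, adjusted p = 0.171, limma). At an unadjusted p under 0.05 there were 3 of 10, and the unmoderated test gave 0 after adjustment and 1 before.

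Of the 9 receptors and SMAD signal transducers measured, none passed either. The coreceptor Tgfbr3 had the smallest p (0.32, SE 0.13, adjusted p = 0.215, limma). At an unadjusted p under 0.05 there was 1 of 9, and 0 by the unmoderated test.

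The 5 genes that rose were all among the 15 target genes of the pathway. Lox, which crosslinks collagen, stood at 7.15 to 9.38 at 3 days, against 5.62 to 6.33 in the 4-day controls (2.41, SE 0.31, adjusted p = 0.000117, limma). Tagln, a smooth muscle protein that binds actin, stood at 9.88 to 11.02, against 7.08 to 9.48 in the controls (2.33, SE 0.37). Fibronectin, Fn1, stood at 7.94 to 8.37, against 6.78 to 7.35 (1.10, SE 0.14). The protease inhibitor Timp1 and the cell cycle inhibitor Cdkn1a rose by 2.09 and 1.11. Tagln also stands among the vascular markers, and Fn1 among the fibroblast markers, together with Mgp, which rose by 1.25. These genes are regulated by many signals besides TGF-beta.

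Of the 13 subunits of eIF3, 10 were measured and none passed at 3 days. Eif3b, the subunit that Nrep is known to bind, averaged 7.92 at 3 days and 8.10 in the 4-day controls (-0.18, SE 0.14). Eif3e had the smallest p (0.24, SE 0.09, adjusted p = 0.210, limma). At an unadjusted p under 0.05 there was 1 of 10, and the unmoderated test gave 0 after adjustment and 1 before.

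Genes known for axon growth and regeneration were the last list read at 3 days. The list includes genes that the study reported as changed on these same arrays, among them Atf3, Gap43, Stat3 and Jun. Its count is thus no independent evidence of a direction. Of 30 listed, 29 were measured, 9 rose and 0 fell, where 2.0% of all probe sets rose and 0.886% fell. The other 20 did not pass, 7 of them with differences below 0 as for Nrep, and the median difference of the list was 0.22. Atf3, a transcription factor induced by axon injury, stood at 7.59 to 8.57 at 3 days, against 5.57 to 6.19 in the 4-day controls (2.17, SE 0.27, adjusted p = 9.55e-05, limma). The growth cone protein Gap43 stood at 11.04 to 11.17, against 10.69 to 10.89 in the controls (0.28, SE 0.07, adjusted p = 0.0214). Tubb2b, a tubulin of growing neurons, and the transcription factor Stat3 rose by 1.22 and 0.89, and the transcription factor Jun rose by 0.34. Sox11, a transcription factor of growing neurons, had 0.44 (SE 0.13) and missed the threshold (adjusted p = 0.0683). The counts depended on the control arrays and on the test. Against 4-day controls 1 and 2 alone 3 growth genes and 3 TGF-beta genes passed, and the methods' t-test passed none of either after adjustment (12 and 7 before it).

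**Figure D5:**
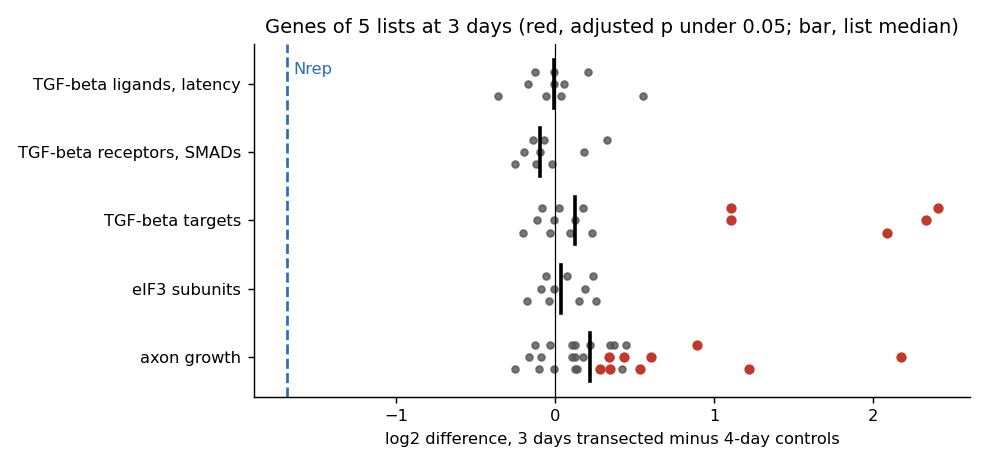
Log2 difference between 3 days and the 4-day controls (horizontal axis) of the members of 5 gene lists (vertical axis), with a point for each gene, red where the adjusted p was under 0.05, a bar at the list median and a dashed line at Nrep. All 14 red points lie above 0, in the lists of TGF-beta targets and of axon growth, and no gene of these lists lies near Nrep at -1.69.

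At 1 week against the 4-day controls no member of these lists passed the test, and neither did any probe set (0.0%). There were 1031 probe sets at an unadjusted p under 0.05, and 0 by the unmoderated test after adjustment. No member of the lists passed at 2 weeks or 1 month either. Atf3 had log2 differences of 0.96 (SE 0.27) at 1 week, 1.60 (SE 0.33) at 2 weeks and 0.66 (SE 0.33) at 1 month, and Gap43 of 0.18, 0.16 and 0.14. Tgfb3 had its largest difference at 1 week (-0.57, SE 0.23).

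The study's list of its most decreased genes, chosen on these arrays, holds 19 genes beside Nrep and is no independent evidence of a direction. All 19 had differences below 0 at 3 days and 15 passed the test, where 0.886% of all probe sets passed as lower. Among them were Tst at -0.92 and Car14 at -1.07 beside Slc6a11. The mean level of the 19 genes was 8.06 to 8.18 at 1 week, against 8.24 to 8.59 in the 4-day controls.

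Nrep lies on rat chromosome 18 in the RefSeq gene table of assembly GRCr8. Of the 5 genes on each side of it, 6 had a named probe set and were tested. Camk4, a calcium-dependent protein kinase of neurons, was lower at 3 days, at 6.59 to 6.88, against 7.03 to 7.31 in the 4-day controls (-0.46, SE 0.08, adjusted p = 0.00348, limma), and it was the 1 neighbour of 6 to pass, where 0.886% of all probe sets passed as lower. Over the 20 other arrays Camk4 ran against Nrep (r = -0.508). Stard4, a cholesterol transfer protein and the nearest neighbour on that side, had -0.44 (SE 0.13, adjusted p = 0.0736). Epb41l4a, the neighbour on the other side, had 0.30 (SE 0.22). Apc, the tumor suppressor of Wnt signalling, had -0.22 (SE 0.11), Srp19 of the signal recognition particle had -0.18 (SE 0.09), and Reep5, which shapes the endoplasmic reticulum, had 0.02 (SE 0.09). Tslp, Wdr36, LOC120098181 and LOC120098309 were not analysed here.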

How the data were processed

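Each of 24 rats gave amplified RNA of laser-dissected, tracer-labelled neurons for 1 Affymetrix Rat Gene 1.0 ST array. Per the study's methods the authors ran RMA in GeneSpring GX. What they deposited is an intensity on a linear scale (17 to 7980), so log2 was taken. RMA makes a level relative to the rest of its array, and the array medians still differed. Of 27342 probe sets, 15097 have 1 symbol, 323 several and 11922 none. The lowest 15% by mean log2 (under 5.05) were left out, which left 23240.

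The 7 groups were fitted together with limma 3.58.1 in R 4.3.3, with Benjamini-Hochberg adjustment over all probe sets tested (threshold 0.05, 3.64 prior and 17 residual degrees of freedom). Single values were tested by exact two-sided permutation of the arrays in Python 3.11.15 with numpy 2.4.6. The scripts were tested on simulated data. The number of arrays limits the precision.

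The gene and the lists were chosen with earlier results of these data known. The text names the 8 highest and 8 lowest correlations, the 5 highest and lowest of deviations, the 3 nearest differences, up to 3 members passing per list and direction (otherwise the smallest p), set pathway genes, chromosomal neighbours and the 3 brightest markers of each cell type. Timp1 and Cdkn1a were added after their values were seen. Of genes with several probe sets the brightest was used. Alternatives were filters, normalizations, variance models, array weights, other control sets, an unmoderated test, a replicate block and each animal left out. The unmoderated test took the t statistic of the compared groups alone, whereas the study tested its arrays by an ANOVA of treatment and time.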

Additional observations from a re-analysis of the deposited data

Results flagged for a closer look

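Two-week control 3 lay apart from its group in Nrep, at 7.97 against 8.59 to 8.68 in the other controls of 2 weeks, a gap that took up 0.883 of the group's range, where the critical value for 4 samples is 0.829. One-week transected animal 1 lay apart in the mean level of the microglia and macrophage markers, at 8.72 against 8.22 to 8.30 in the other animals of 1 week (0.843 of the range). Its Nrep level was 8.86. Chance marks about 1 in 20 groups by this measure, and 45 were checked, so 2 such arrays are no more than chance would give.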

How the results depend on the processing

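The Nrep difference at 3 days kept its direction in every alternative run, from -1.72 to -1.57 under other settings and from -1.82 to -1.46 with each animal left out. These arrays chose the gene, so the kept direction is a description and no further evidence. At 1 week against the 4-day controls it ran from -0.30 to -0.15, and from -0.41 to -0.092 with an animal left out. The tested late differences were small and changed sign. With each animal left out, the 1-week difference from later controls ran from -0.18 to 0.086 (without 1-week animal 5), that of 2 weeks from -0.40 to 0.18 (without transected animal 3), that of 1 month from -0.29 to 0.027 (without transected animal 2), and the late average from -0.27 to 0.026 (without 2-week transected animal 3). Pooling all 12 controls gave 0.022 at 1 month. The difference of 1-month from 2-week controls ran from 0.26 to 0.50. The causes of these changes were not tested.

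Over all probe sets tested, animals of the same number did not vary together more than others. The mean r of their deviations was 0.02 over 55 pairs and -0.01 over 189 other pairs. Of 24 arrays, 8 matched best with an array of their own number. In Nrep itself animal 3 was the lowest of its group in 4 of the 5 groups that hold one. With the replicate number as a block, the 2-week difference was 0.027, and the difference of 1-month from 2-week controls stayed at 0.43 with an adjusted p of 0.0468 (limma). The adjusted p of this difference ran from 0.0468 to 0.489 over its alternatives.

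Across the TGF-beta, eIF3 and axon growth lists 14 members passed at 3 days, and 11 to 15 with an animal left out. The count was 6 with 4-day controls 1 and 2 only and 2 with the compared groups fitted alone. It was 0 by the unmoderated test, which passed 0.0% of all probe sets at 3 days. The TGF-beta count reached 8 with all 12 controls pooled. The median r of the 8 genes closest to Nrep was 0.88 over 24 arrays, 0.81 by Spearman's rho, 0.67 without 3 days, 0.66 over deviations from group means and 0.60 over the 12 controls. The unmoderated test was not run for the late average, which has more than a pair of groups. No exact p was taken for the comparisons that chose Nrep. Depth is set by the arrays, and no detection limit could be drawn from normalized values alone.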
